A study of Mus musculus with 12 samples.

Results

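The genes described here are the glutathione transferases and the enzymes that make, recycle and use glutathione in mouse liver. They were taken as the rows of the deposited tables whose gene symbol belonged to a list of 32 names, which is 32 of the 55536 genes in the tables. Every symbol on that list was found. By role they are 4 alpha, 7 mu, 3 pi and 3 theta class transferases, 3 single members of the kappa, omega and zeta classes, 3 microsomal transferases, 5 genes of glutathione synthesis, recycling and breakdown, and 4 glutathione peroxidases.

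Glutathione is a small peptide of glutamate, cysteine and glycine that hepatocytes hold at high concentration. Glutamate-cysteine ligase makes its precursor, glutathione synthetase completes it, and glutathione reductase returns the oxidised form to the reduced one with NADPH. Transferases join glutathione to drugs and lipid aldehydes so that these can be exported, and peroxidases spend it on hydrogen peroxide and lipid peroxides.

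Liver RNA came from 12 samples in 3 groups of 4. Wild-type C57BL/6J mice aged 8 weeks, kept on 12 h of light and 12 h of dark and fed freely, each received 0.1 OD of an adenovirus in the tail vein. The virus carried a short hairpin RNA against bacterial lacZ (shLacZ, the control), against G0s2, an inhibitor of the triglyceride lipase ATGL (shG0s2), or against Rgs16, a regulator that shuts off G protein signals (shRgs16). All 3 groups therefore carried virus and a hairpin, and all were killed 12 days later at zeitgeber time 12, when the lights go off, after 6 h without food in the daytime. The labels name no cell type to which the hairpins are restricted, and the RNA is that of the whole tissue. The labels do not say that the replicates of a group are separate animals, so p-values here reflect how far these samples scatter, which may be technical.

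G0s2 was at 66.6 to 87.4 CPM in shLacZ and 24.6 to 49.3 CPM in shG0s2, and Rgs16 was at 105 to 212 CPM in shLacZ and 14.4 to 37.4 CPM in shRgs16, where CPM is the count divided by the library total and scaled between samples by TMM. Rgs16 was also lower in shG0s2, at 43.9 to 71.3 CPM. Total estimated counts were 18458266 to 27170443 per sample, and the 32 genes together held 0.77% to 0.88% of them in control samples, 1.23% to 1.45% with shG0s2 and 0.96% to 1.02% with shRgs16. The share of the major urinary protein family was 9.56% to 11.03%, 0.82% to 1.57% and 1.16% to 3.31% in the same order, and this difference moves every value that is expressed per library total. The hepatocyte marker Alb was abundant in every sample, at 23841 to 44876 CPM. Some lists of cell type markers differed between the groups. The endothelial, cholangiocyte and progenitor, neutrophil and erythroid sums overlapped between all 3 groups. Even so, 6 of 7 erythroid genes rose and 1 fell in shG0s2, and 3 of 6 tested cholangiocyte and progenitor genes rose in each knockdown. The summed CPM of 9 stellate cell and fibroblast genes was 252 to 324 for shLacZ, 997 to 1207 for shG0s2 and 410 to 728 for shRgs16. That of 10 Kupffer cell and macrophage genes was 643 to 721, 965 to 1196 and 862 to 1047, that of 8 T and NK cell genes 7.68 to 24.7, 36.9 to 42.6 and 34.8 to 47.7, that of 8 periportal hepatocyte genes 4468 to 6101, 2404 to 3265 and 3899 to 4320, and that of 8 pericentral ones 7040 to 7872, 2026 to 2961 and 4592 to 5822. Of the 9 stellate cell and fibroblast genes, 9 rose and 0 fell in shG0s2, and 6 rose and 1 fell in shRgs16. In shRgs16 Col3a1 was at 148 to 329 CPM, beside 49.1 to 92.1 in shLacZ, and Col1a1 at 54.5 to 168, beside 12.8 to 26.6. Dcn was at 94.5 to 99.3 CPM in shRgs16, beside 90.9 to 111, and Rgs5 at 37.1 to 44.5, beside 47.3 to 57.1. The pericentral sum is mostly Cyp2e1 (mean 5456, 1485 and 3242 CPM). Of those 8 genes, 1 rose and 4 fell in shG0s2, and 2 rose and 2 fell in shRgs16. Of the 8 periportal genes, 2 rose and 5 fell in shG0s2, and 1 rose, 2 fell and 5 were not called in shRgs16. Among the periportal genes, Cyp2f2 was at 1417 to 1656, 404 to 808 and 615 to 926 CPM. The sum of 12 hepatocyte genes, 53544 to 65644, 34428 to 56888 and 61488 to 67029, is mostly Alb, and gene by gene 0 rose and 11 fell in shG0s2, and 2 rose and 8 fell in shRgs16. Rises and falls here are calls at the threshold given below. Of all genes tested, 31.3% rose and 29.2% fell in shG0s2, and 24.6% rose and 24.5% fell in shRgs16. No gene of these marker lists was at 0 throughout a group, and the part of the lists in the results was not tested. In whole tissue, fewer cells of a type and less RNA per cell cannot be told apart.

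Of the 32 genes, 31 had enough counts to be tested. Ggt1, which encodes a gamma-glutamyltransferase that degrades glutathione outside the cell, had 2 to 19 counts per sample and was not tested. A gene is said to have risen or fallen where its adjusted p was under 0.05. In shG0s2 against shLacZ, 15 of the 31 rose and 9 fell, where 60.5% of the 15592 genes tested changed (31.3% higher and 29.2% lower). In shRgs16, 14 rose and 8 fell, where 49.1% of 15324 genes changed (24.6% higher and 24.5% lower). Between the knockdowns, 13 genes were higher in shG0s2 and 7 lower, where 41.5% of 16018 genes differed (21.0% higher and 20.5% lower). The median log2 fold change of the 31 genes was 0.29, 0.33 and 0.26 in the 3 comparisons, beside 0.01 for all genes in each. The samples of both groups did not overlap in 23, 21 and 20 of the 31, beside 55.6%, 45.0% and 39.8% of all genes. The knockdown comparisons share the shLacZ samples, so their values are set side by side and not counted as separate evidence.

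**Figure D1:**
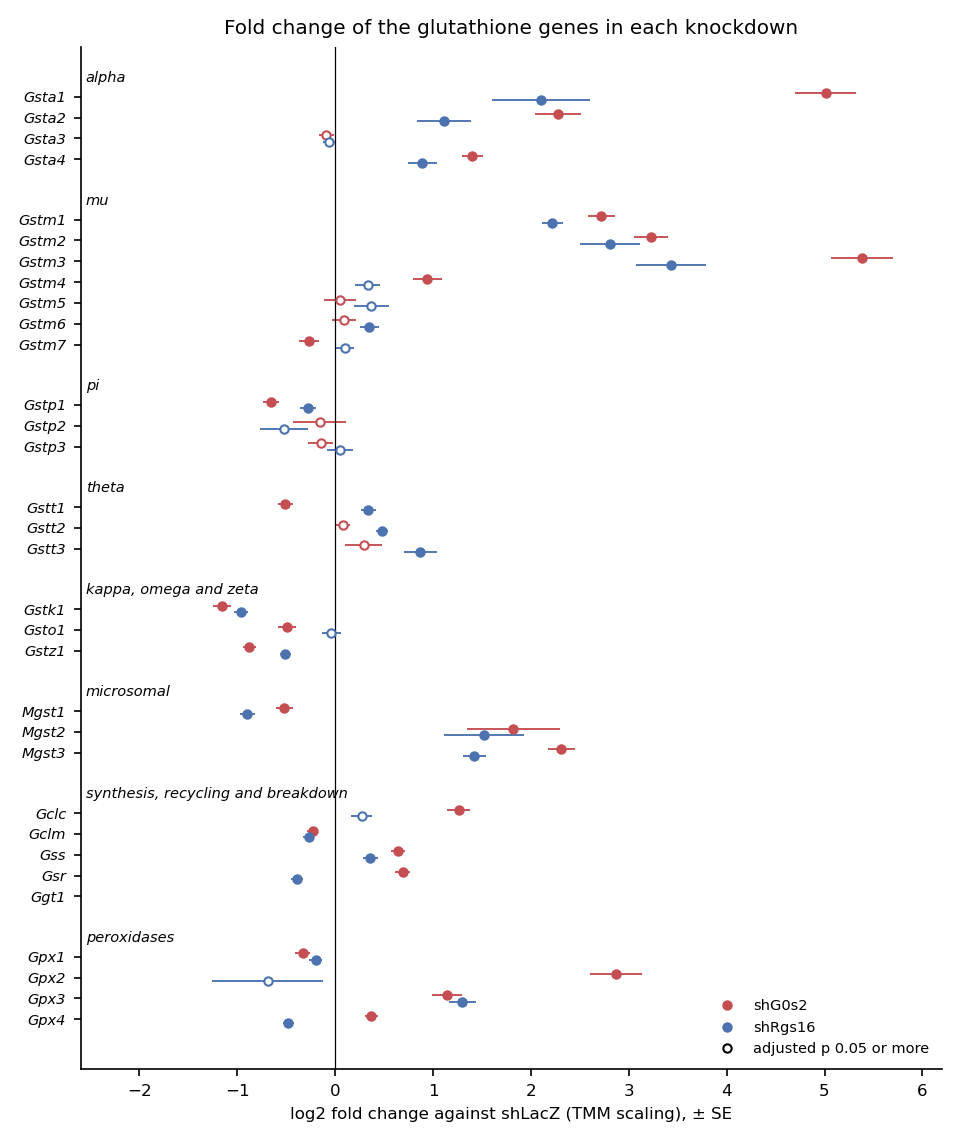
Log2 fold change of each gene against shLacZ with TMM scaling (x axis, bars are the standard error) in shG0s2 (red) and shRgs16 (blue), grouped by class; open symbols have an adjusted p of 0.05 or more, and Ggt1 was not tested. Gsta1 and Gstm3 lie farthest to the right in shG0s2, at 5.01 and 5.38. Gstt1, Gsr and Gpx4 lie on opposite sides of 0 in the knockdowns. In TPM, Gstt1 in shG0s2 and Gsr in shRgs16 change sign, and Gpx4 in shRgs16 is not called (-0.05).

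The way samples are scaled decides part of this picture. TMM holds the bulk of genes near 0, whereas with library size alone the median over all genes was 0.50 in shG0s2, 0.31 in shRgs16 and 0.21 between the knockdowns, and the authors' TPM (corrected for transcript length) put it at 0.54, 0.32 and 0.22. All 15 genes that rose in shG0s2 were also higher, past the threshold, under both of those scalings. So were 13 of the 14 in shRgs16 and all 13 that were higher in shG0s2 than in shRgs16. The exception in shRgs16 was Mgst2, which library size alone called (1.82) and limma on log2(TPM + 1) did not (0.56, adjusted p = 0.0723). Its mean was 0.435 TPM in shLacZ and 1.1 TPM in shRgs16, low beside the added 1. Of the genes that fell, Gstk1 and Gstz1 in shG0s2, Gstk1 and Mgst1 in shRgs16, and Gstt1 between the knockdowns were lower under all 3 scalings. The falls of Gstm7, Gstp1, Gstt1, Gsto1, Mgst1, Gclm and Gpx1 in shG0s2, and of Gstp1, Gclm, Gsr and Gpx1 in shRgs16, had another sign under at least 1 of them, and those of Gstz1 and Gpx4 in shRgs16 were not called in TPM. Other genes were called only away from TMM: Gsta3, Gstm5, Gstm6, Gstp3, Gstt2 and Gstt3 in shG0s2 (6 genes) and Gsta3, Gstm4, Gstm5, Gstm7, Gsto1 and Gclc in shRgs16 (6 genes) were higher with both library size alone and TPM. Rises, falls and genes without a call are therefore given relative to the bulk of genes, with TMM, unless another scaling is named.

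The mu class transferases, cytosolic enzymes that conjugate epoxides and other electrophiles, had the greatest change in summed level. Their summed TPM in shG0s2 was 10.9 times that in shLacZ, and in shRgs16 5.68 times, and in CPM the ratios were 6.79 and 4.16. In both units these were the highest ratios of the 8 groups of genes. Their 7 genes lie in a cluster of 149.1 kb at chr3:107895821-108044894 (GRCm38, GENCODE), in the order Gstm5, Gstm7, Gstm6, Gstm3, Gstm2, Gstm1 and Gstm4. In shG0s2, 4 of the 7 rose and 1 fell, and in shRgs16 4 rose and none fell. The 3 neighbours Gstm3, Gstm2 and Gstm1, which span 54.3 kb on the minus strand, rose most in both knockdowns.

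Gstm1 had the highest TPM of the class in shLacZ. Its level was 384, 432, 508 and 372 CPM in the shLacZ samples, 3386, 2730, 2424 and 2598 CPM in shG0s2, and 2053, 2083, 2094 and 1670 CPM in shRgs16. The 3 groups did not overlap: every shG0s2 sample was above every shRgs16 sample, and all of these were above shLacZ. On the log2 scale Gstm1 rose by 2.72 (SE 0.134, adjusted p = 2.8e-08) in shG0s2 and 2.22 (SE 0.112, adjusted p = 1.6e-07) in shRgs16, and was higher in shG0s2 than in shRgs16 by 0.50 (adjusted p = 0.00407).

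Gstm3 was a minor transcript of the control liver, at 14.0, 21.2, 32.7 and 25.6 CPM in shLacZ. It stood at 1141, 1147, 692 and 899 CPM in shG0s2 and 221, 375, 169 and 247 CPM in shRgs16. The lowest shG0s2 sample was above the highest shRgs16 sample, and replicate 3 was the lowest of both knockdown groups. The rise was 41.8-fold in shG0s2 (log2 5.38, SE 0.318, adjusted p = 3.6e-06) and 10.8-fold in shRgs16 (log2 3.43, SE 0.358, adjusted p = 0.000296), and the knockdowns differed by 1.94 on the log2 scale (adjusted p = 0.000602).

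Gstm2 stood at 11.2, 14.3, 15.6 and 14.3 CPM in shLacZ, 151, 150, 94.0 and 122 CPM in shG0s2, and 85.5, 141, 55.1 and 106 CPM in shRgs16. Both knockdowns were clear of the control but overlapped each other. Its log2 fold change was 3.23 (SE 0.174, adjusted p = 7.3e-07) in shG0s2 and 2.81 (SE 0.308, adjusted p = 0.000322) in shRgs16, and the difference of 0.41 between the knockdowns did not pass the threshold (SE 0.261, adjusted p = 0.238).

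The other 4 genes of the cluster changed less. Gstm4 rose in shG0s2 by 0.94 (adjusted p = 0.000439) with no overlap, and its change of 0.33 in shRgs16 had an adjusted p of 0.0571, where library size alone gave a called 0.63. Gstm6 rose in shRgs16 by 0.35 with overlapping groups, and Gstm7 fell in shG0s2 by 0.27 with overlapping groups (adjusted p = 0.0388), a call that was lost without shLacZ replicate 3 or 4 or shG0s2 replicate 1, 2 or 3 (adjusted p 0.0512 to 0.125, edgeR) and whose sign turned to 0.22 under library size alone. Gstm5, between 4.20 and 8.91 CPM in all 12 samples, passed in neither knockdown with TMM (0.05 and 0.37) and was higher with library size alone (0.55 and 0.68).

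**Figure D2:**
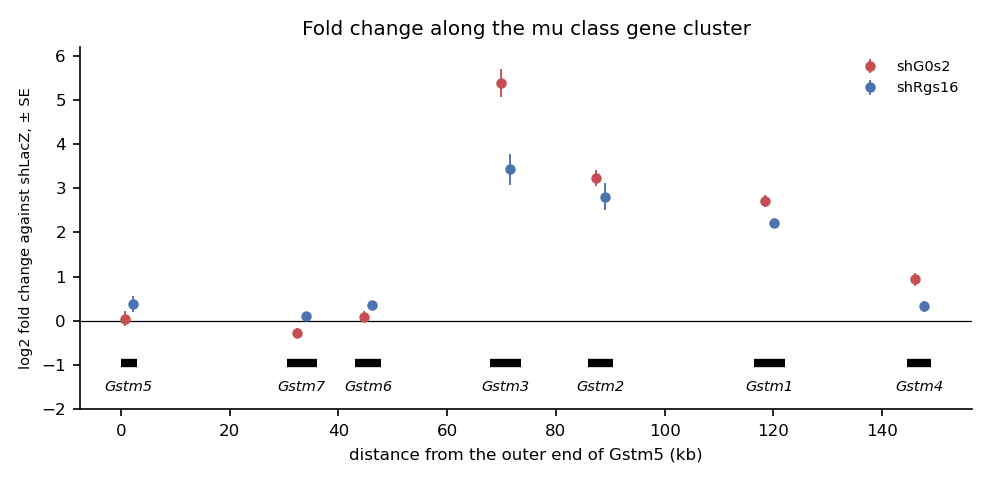
Log2 fold change against shLacZ (y axis, bars are the standard error) of the 7 mu class genes with TMM scaling, placed by their distance in kb along the cluster (x axis, from the first annotated base of Gstm5); black bars mark the genes, red is shG0s2 and blue shRgs16. Gstm3, Gstm2 and Gstm1 stand above 2 in both knockdowns while Gstm5, Gstm7 and Gstm6 stay between -0.27 and 0.37.

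The mu genes resemble each other in sequence, so part of their counts rests on how reads were divided. Coding sequences of Gstm1 and Gstm3 were 89.4% identical, those of Gstm1 and Gstm2 85.9%, and those of Gstm2 and Gstm3 84.7%. Of all 50-base stretches in the GENCODE transcripts, 18.9% of those of Gstm1, 5.65% of those of Gstm2 and 28.8% of those of Gstm3 were also found in another gene. The gene that shared most with each was a pseudogene that stayed at or below 0.174 CPM. Of the 287 shared stretches of Gstm1, however, 124 were also in Gstm3, so the division of reads between Gstm1 and Gstm3 is uncertain. The promoters of the 3 genes that rose most were searched on both strands for 3 short motifs. These were the antioxidant response element core TGACNNNGC, which binds NRF2 (encoded by Nfe2l2) with a small MAF partner, TGANTCA, which binds AP-1 proteins and fits the longer NRF2 motif, and the TATA box TATAAA. The 250 bases before the RefSeq start (GRCm38.p6) held no match to any of the 3 in Gstm1, Gstm2 or Gstm3. Sequence farther upstream was not searched, so sites there would be missed. The part of each window that lies before the GENCODE gene is shown, 5′ to 3′ on the minus strand, so that the 3 neighbours can be compared. These are chr3:108017974-108018223 for Gstm1, chr3:107986454-107986670 for Gstm2 and chr3:107969284-107969424 for Gstm3.
Gstm1: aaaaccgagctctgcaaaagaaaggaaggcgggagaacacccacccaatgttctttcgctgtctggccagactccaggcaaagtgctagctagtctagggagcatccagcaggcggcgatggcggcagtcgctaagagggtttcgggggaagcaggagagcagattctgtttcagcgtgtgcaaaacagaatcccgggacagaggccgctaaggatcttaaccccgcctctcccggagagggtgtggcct
Gstm2: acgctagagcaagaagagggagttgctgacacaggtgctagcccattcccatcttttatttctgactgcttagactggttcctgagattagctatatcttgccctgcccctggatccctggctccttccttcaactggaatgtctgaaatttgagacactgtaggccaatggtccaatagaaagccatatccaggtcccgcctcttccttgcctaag
Gstm3: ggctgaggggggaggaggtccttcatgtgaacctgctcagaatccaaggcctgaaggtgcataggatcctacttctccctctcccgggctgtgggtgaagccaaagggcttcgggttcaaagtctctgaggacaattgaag

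Among the alpha class, enzymes with peroxidase activity towards lipid peroxides, 3 of 4 rose in each knockdown and the most abundant one passed only under other scalings. Gsta3, by far the highest of the class by TPM in shLacZ, stood at 651, 665, 682 and 608 CPM in shLacZ, 689, 580, 592 and 572 CPM in shG0s2 and 650, 580, 658 and 619 CPM in shRgs16. The groups overlapped throughout, and its log2 fold changes were -0.09 (adjusted p = 0.355) and -0.06 (adjusted p = 0.497), which became 0.40 and 0.24 under library size alone, both called higher. Gsta4, which acts on the lipid aldehyde 4-hydroxynonenal, rose by 1.40 in shG0s2 and 0.89 in shRgs16.

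Gsta1 was nearly silent in the control, at 3.02, 3.21, 7.16 and 3.48 CPM. It reached 175, 140, 106 and 123 CPM in shG0s2 and 19.2, 31.9, 8.61 and 12.8 CPM in shRgs16. All 3 groups were apart, and within shRgs16 the highest sample was several times the lowest. Its log2 fold change was 5.01 (SE 0.311, adjusted p = 6.8e-06) in shG0s2 and 2.10 (SE 0.501, adjusted p = 0.012) in shRgs16, and the direct difference was 2.90 (SE 0.396, adjusted p = 0.000283).

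Gsta2 followed with smaller changes. It stood at 9.54, 13.8, 21.3 and 14.3 CPM in shLacZ, 85.0, 76.9, 59.3 and 64.2 CPM in shG0s2, and 31.4, 44.1, 24.9 and 27.2 CPM in shRgs16, with no overlap between groups. The rises were 2.28 (SE 0.236, adjusted p = 7.6e-05) and 1.11 (SE 0.273, adjusted p = 0.012), and the knockdowns differed by 1.16 (adjusted p = 0.00294). In TPM, the ratio of Gsta1 to Gsta2 was 0.266 ± 0.0421 in the control, 1.70 ± 0.106 with shG0s2 and 0.503 ± 0.154 with shRgs16 (SD, n = 4).

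Gsta1 and Gsta2 can hardly be separated by short reads. Their coding sequences were 98.0% identical, 90.5% of the 50-base stretches of Gsta1 and 49.8% of those of Gsta2 occurred in another gene, and most of the Gsta1 stretches were shared with the neighbouring copy Gm3776. Gm3776 itself ranged from 1.68 to 4.24 CPM in the control, 112 to 194 CPM with shG0s2 and 7.91 to 27.3 CPM with shRgs16. Another copy, Gm10639, rose by 4.69 in shG0s2 and 2.16 in shRgs16. The division of the rise among Gsta1, Gsta2 and these copies is therefore uncertain. Gsta4, Gsta1 and Gsta2 lie at chr9:78182774-78355788, and Gsta3 lies apart at chr1:21240589-21265661.

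In the pi class 1 of 3 genes fell in each knockdown. Gstp1, with Mgst1 the most abundant transferase of the control liver, stood at 2398, 2314, 2460 and 2190 CPM in shLacZ, 1407, 1414, 1550 and 1495 CPM in shG0s2 and 1951, 1730, 2162 and 1866 CPM in shRgs16. Every shG0s2 sample was below every shRgs16 sample and every shRgs16 sample below the control. Relative to the bulk of genes Gstp1 fell by 0.66 (SE 0.0828, adjusted p = 2.5e-05) in shG0s2 and by 0.28 (SE 0.0827, adjusted p = 0.0136) in shRgs16, whereas its TPM was 4053 ± 361, 4131 ± 135 and 4476 ± 275 (SD, n = 4) in shLacZ, shG0s2 and shRgs16, with log2 changes of 0.03 and 0.15 on that scale. Gstp2 and Gstp3 were not called in either knockdown with TMM. Gstp3 was called higher in TPM in both (0.59 and 0.56) and with library size alone in shG0s2 (0.34, adjusted p = 0.0499). Gstp2 is 98.1% identical to Gstp1 in its coding sequence, and 54.3% of its stretches of 50 bases are found elsewhere, so its 16.3 to 37.0 CPM are uncertain.

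The pi genes lie at chr19:4035407-4059569. Gstp1 and Gstp2 each held 1 match to TGANTCA before the RefSeq start, with its first base at -74 and -89 (base -1 is the last before the start), and the same 10 bases on either side. In all, 4 of 28 members with a promoter in the RefSeq table held TGANTCA (Gstm5, Gstp1, Gstp2 and Mgst2), or 14.3%, beside 6.75% of 32851 promoter windows. The core TGACNNNGC was also found in 4 of 28 (Gsta3, Gstm5, Mgst1 and Gclm), or 14.3%, beside 10.2% of windows, and TATAAA in 3 (Gsta2, Gstm7 and Mgst2), or 10.7%, beside 12.4%. The first 2 motifs overlap in their first letters. The Gstp1 promoter upstream of the GENCODE gene, chr19:4037986-4038162 on the minus strand, is printed first, and the capital at its end is the first base of the match. The matches of the named genes follow with 10 bases on either side and the match in capitals; Gstp1 spans chr19:4037970-4037996, Gstp2 chr19:4042294-4042320, Gsta3 chr1:21240454-21240482, Mgst1 chr6:138140461-138140489 and Gclm chr3:122245413-122245441. Gstp1 and Gstp2 are on the minus strand and the others on the plus strand, and in Mgst1 and Gclm the capitals are the reverse complement of the motif. A match describes the letters only.
Gstp1: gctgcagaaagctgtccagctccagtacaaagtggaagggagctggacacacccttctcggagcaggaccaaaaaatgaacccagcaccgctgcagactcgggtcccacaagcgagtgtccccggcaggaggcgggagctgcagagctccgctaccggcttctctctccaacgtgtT
Gstp1: tccaacgtgtTGAGTCAgcatccgggg
Gstp2: tccaacgtgtTGAGTCAgcatccgggg
Gsta3: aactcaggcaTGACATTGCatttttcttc
Mgst1: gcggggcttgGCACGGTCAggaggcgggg
Gclm: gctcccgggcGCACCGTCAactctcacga

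The microsomal transferases, membrane proteins of the MAPEG family, split by abundance. Mgst1, which protects membranes from lipid peroxides, stood at 2381, 2362, 2369 and 2561 CPM in shLacZ, 1732, 1591, 1813 and 1562 CPM in shG0s2, and 1341, 1188, 1257 and 1390 CPM in shRgs16. The order here was control, then shG0s2, then shRgs16, with no overlap. Mgst1 fell by 0.90 (SE 0.076, adjusted p = 3.6e-06) in shRgs16, under all 3 scalings, and by 0.52 (SE 0.0868, adjusted p = 0.000248) in shG0s2, where TPM gave 0.13. It was higher in shG0s2 than in shRgs16 by 0.37 (adjusted p = 0.00149).

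Mgst3, a minor member, stood at 8.33, 7.69, 7.43 and 6.17 CPM in shLacZ, 45.3, 30.0, 32.6 and 37.9 CPM in shG0s2, and 18.9, 21.4, 16.6 and 22.3 CPM in shRgs16. Each group was clear of the others. The rises were 2.31 (SE 0.139, adjusted p = 2.0e-07) and 1.42 (SE 0.119, adjusted p = 3.6e-06), and shG0s2 exceeded shRgs16 by 0.88 (adjusted p = 8.2e-05). Mgst2 rose by 1.82 and 1.52, but had only 2 to 8 counts per control sample, 11 to 43 per shG0s2 sample and 14 to 24.9 per shRgs16 sample.

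**Figure D3:**
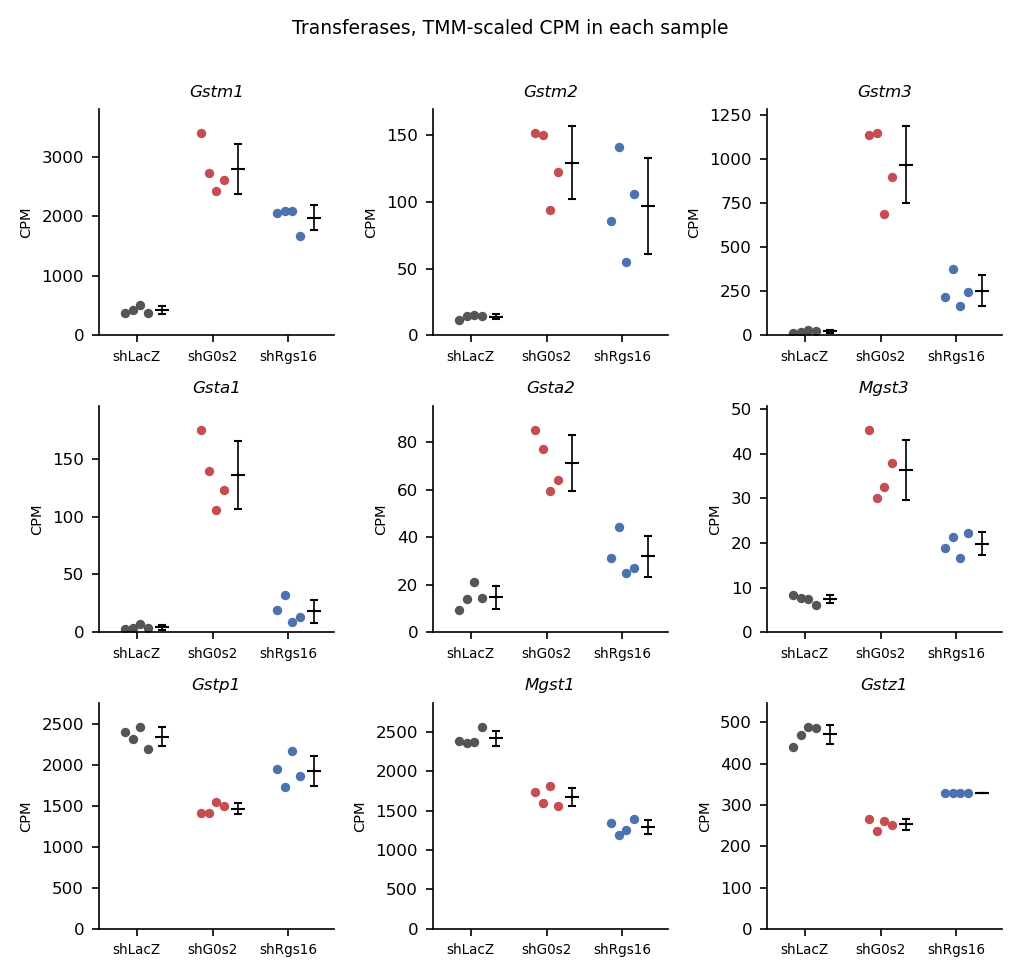
TMM-scaled CPM (y axis, starting at 0 in each panel) of 9 transferases in each sample of shLacZ, shG0s2 and shRgs16; dots are samples and the bars beside them the mean and SD of 4. Gstm1, Gstm2, Gstm3, Gsta1, Gsta2 and Mgst3 are above the control in all 8 knockdown samples, and with TMM scaling Gstp1, Mgst1 and Gstz1 are below it in all 8 (in TPM, Gstp1 in both knockdowns and Mgst1 in shG0s2 change sign).

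The theta class act on small halogenated compounds, and their 3 genes lie together at chr10:75774115-75837424. All 3 rose in shRgs16 under all 3 scalings, and with TMM all 3 were lower in shG0s2 than in shRgs16. Gstt1 stood at 147, 165, 191 and 171 CPM in shLacZ, 128, 111, 117 and 114 CPM in shG0s2, and 203, 208, 220 and 223 CPM in shRgs16. The control samples lay between the knockdowns without touching either. Gstt1 fell by 0.51 (SE 0.079, adjusted p = 0.000135) in shG0s2 and rose by 0.34 (SE 0.075, adjusted p = 0.0027) in shRgs16. The direct difference of -0.86 (SE 0.0739, adjusted p = 4.6e-07) kept its call under every scaling, while the fall against shLacZ shrank to -0.03 under library size alone and turned to 0.19 in TPM.

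Gstt2 and Gstt3 rose in shRgs16 by 0.48 (adjusted p = 7.2e-05) and 0.87 (adjusted p = 0.00322). Neither was called in shG0s2 with TMM (0.08 and 0.29, with overlapping groups), whereas library size alone called both higher (0.57, adjusted p = 1.58e-05, and 0.78, adjusted p = 0.00812), as did TPM. Between the knockdowns Gstt2 differed by -0.42 (adjusted p = 0.000185) and Gstt3 by -0.59 (adjusted p = 0.0238), but TPM did not call Gstt2 (-0.18, adjusted p = 0.0557) and neither library size alone (-0.39, adjusted p = 0.138) nor TPM (-0.32, adjusted p = 0.163) called Gstt3. With TMM the Gstt3 call was also lost without shG0s2 replicate 3 or 4 or shRgs16 replicate 2 or 4 (adjusted p 0.0501 to 0.0607).

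Of the single members, Gstz1, which is maleylacetoacetate isomerase in tyrosine breakdown, stood at 440, 469, 489 and 486 CPM in shLacZ, 266, 236, 261 and 251 CPM in shG0s2, and close to 330 CPM in all 4 shRgs16 samples (330 ± 0.265, SD, n = 4). The groups were apart. It fell by 0.88 (SE 0.067, adjusted p = 5.0e-07) in shG0s2 and 0.51 (SE 0.0572, adjusted p = 2.3e-05) in shRgs16, and was lower in shG0s2 than in shRgs16 by 0.38; in TPM the change in shRgs16 was -0.04 (adjusted p = 0.55) and the difference between the knockdowns -0.13 (adjusted p = 0.0868), neither called. Gstk1, the mitochondrial and peroxisomal kappa enzyme, fell by 1.16 (adjusted p = 6.6e-07) and 0.96 (adjusted p = 1.9e-06), under all 3 scalings. Gsto1, an omega enzyme, fell in shG0s2 by 0.49 (adjusted p = 0.000776), where library size alone gave 0.00 and TPM 0.32, and was not called in shRgs16 with TMM (-0.04), where library size alone gave a called 0.27.

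Summed over the 23 transferases, TPM was 10707 ± 665 in the control, 18115 ± 1216 with shG0s2 and 13276 ± 385 with shRgs16 (SD, n = 4), and TMM-scaled CPM was 7074 ± 180, 8806 ± 697 and 7378 ± 192. Shares within that sum do not depend on how samples are scaled. In shLacZ the mu class held 4.77%, 5.41%, 6.16% and 5.13% of transferase TPM. In shG0s2 it held 37.8%, 37.1%, 29.7% and 33.8%, and in shRgs16 24.8%, 27.8%, 23.8% and 22.2%. Every knockdown sample was far above every control sample, and the knockdowns did not overlap. Pi transcripts went from 39.4% ± 1.27 to 24.2% ± 2.22 in shG0s2 and 35.3% ± 2.28 in shRgs16, and microsomal transcripts from 38.7% ± 1.69 to 25.4% ± 2.65 and 22.1% ± 1.66. The pi share was lower in shG0s2 than in every shRgs16 sample, whereas the microsomal shares of the knockdowns overlapped.

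The smaller classes shifted as well. Alpha held 6.64% ± 0.374, 9.74% ± 0.598 and 8.20% ± 0.317 in shLacZ, shG0s2 and shRgs16, theta 3.30% ± 0.276, 2.67% ± 0.0966 and 4.82% ± 0.255, and the kappa, omega and zeta genes 6.58% ± 0.303, 3.43% ± 0.207 and 4.95% ± 0.0993. Within the mu class Gstm3 went from 3.6% ± 0.894 to 22.6% ± 2.75 in shG0s2 and 9.34% ± 2.72 in shRgs16, while Gstm1 held 70.9% ± 3.41, 69.3% ± 3.02 and 79.4% ± 4.68. Within the alpha class Gsta3 went from 88.3% ± 1.78 to 56.3% ± 2.68 and 77.9% ± 5.55. The TPM ratio of Gstm1 to Gstp1 was 0.101 ± 0.0106, 1.06 ± 0.193 and 0.582 ± 0.0732, so the pair stood level in shG0s2.

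**Figure D4:**
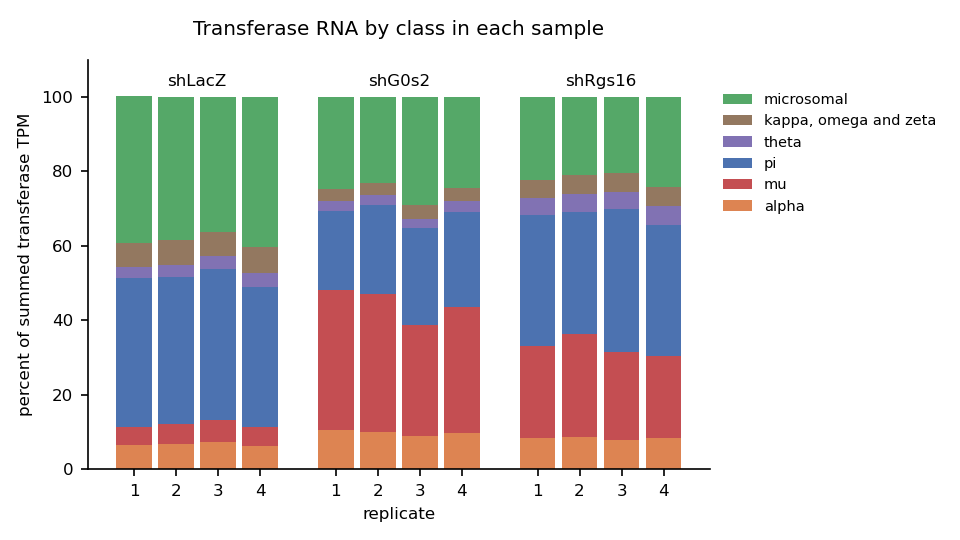
Share of the summed TPM of 23 transferases held by each class (y axis, percent) in each of the 12 samples (x axis, replicate within group). The mu class (red) holds 4.77% to 6.16% of the shLacZ bars, 29.7% to 37.8% of the shG0s2 bars and 22.2% to 27.8% of the shRgs16 bars.

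The subunits of the enzyme that starts glutathione synthesis moved apart in shG0s2. Gclc, the catalytic subunit of glutamate-cysteine ligase and the rate-limiting enzyme of the pathway, stood at 254, 217, 242 and 188 CPM in shLacZ, 553, 636, 479 and 474 CPM in shG0s2, and 289, 245, 314 and 240 CPM in shRgs16. The shG0s2 samples were above all others, and shRgs16 overlapped the control in CPM but not in TPM (95 to 122 against 54.1 to 76.5). Gclc rose by 1.26 (SE 0.114, adjusted p = 2.6e-06) in shG0s2; in shRgs16 its change was 0.27 (SE 0.108, adjusted p = 0.059), which library size alone (0.56, adjusted p = 0.00222) and TPM (0.69, adjusted p = 0.000927) called higher, and the knockdowns differed by 0.98 (adjusted p = 1.9e-05).

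Gclm, the modifier subunit that improves the catalytic subunit's affinity for glutamate, stood at 217, 207, 225 and 205 CPM in shLacZ, 176, 187, 173 and 189 CPM in shG0s2, and 181, 176, 187 and 166 CPM in shRgs16. Both knockdowns lay below the control and overlapped each other. It fell by 0.23 (SE 0.0587, adjusted p = 0.00493) and 0.27 (SE 0.057, adjusted p = 0.00206), which library size alone turned to 0.26 and 0.03. The ratio of Gclc to Gclm in TPM, which does not depend on scaling between samples, was 0.804 ± 0.101 in the control, 1.91 ± 0.230 with shG0s2 and 1.14 ± 0.177 with shRgs16 (SD, n = 4). It was 1.66 or more in every shG0s2 sample and 1.33 or less in all others. Gss, glutathione synthetase, rose by 0.64 (adjusted p = 8.1e-06) and 0.36 (adjusted p = 0.00196).

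Recycling went opposite ways. Gsr, glutathione reductase, stood at 67.3, 64.4, 66.1 and 73.1 CPM in shLacZ, 99.8, 125, 105 and 106 CPM in shG0s2, and 52.7, 52.5, 48.5 and 53.8 CPM in shRgs16. The control lay between the knockdowns with no overlap. Gsr rose by 0.69 (SE 0.0746, adjusted p = 7.4e-06) in shG0s2 and fell by 0.39 (SE 0.0603, adjusted p = 0.00026) in shRgs16, where library size alone gave -0.08 and TPM 0.07. The difference between the knockdowns was 1.07 (SE 0.0698, adjusted p = 3.7e-08), and it passed under all 3 scalings. The TPM ratio of Gsr to Gss was 0.565 ± 0.0369 in shLacZ, 0.602 ± 0.0962 in shG0s2 and 0.344 ± 0.0268 in shRgs16.

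Of the peroxidases, Gpx4, the selenoenzyme that reduces phospholipid peroxides in membranes, also split the knockdowns. Its level was 255, 248, 246 and 243 CPM in shLacZ, 335, 333, 292 and 310 CPM in shG0s2, and 184, 179, 166 and 184 CPM in shRgs16. The 3 groups did not overlap in CPM, whereas in TPM shRgs16 (297 to 346) overlapped shLacZ (323 to 362). Gpx4 rose by 0.37 (SE 0.063, adjusted p = 0.000315) and fell by 0.48 (SE 0.0551, adjusted p = 3.0e-05), with a direct difference of 0.83 (SE 0.0597, adjusted p = 9.9e-08) that held under all 3 scalings; in TPM the fall was -0.05. A pseudogene, Gpx4-ps2, holds 34.7% of the 50-base stretches of Gpx4 but did not exceed 1.05 CPM.

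Gpx1, the main cytosolic peroxidase, stood at 1792, 1788, 1754 and 1720 CPM in shLacZ, 1328, 1457, 1423 and 1385 CPM in shG0s2, and 1525, 1439, 1584 and 1621 CPM in shRgs16. It was below the control in both knockdowns, which overlapped. The falls were 0.33 (SE 0.076, adjusted p = 0.00273) and 0.20 (SE 0.0679, adjusted p = 0.0307), turned to 0.17 and 0.10 by library size alone, and the call in shRgs16 was lost without replicate 1 or 2 of either group (adjusted p 0.0671 to 0.0824). The TPM ratio of Gpx4 to Gpx1 was 0.136 ± 0.0045, 0.236 ± 0.0227 and 0.120 ± 0.0101 in shLacZ, shG0s2 and shRgs16.

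Gpx2, a peroxidase best known from the gut epithelium, was scarce in the control, with 8, 24, 12 and 10 counts. It had 140, 104, 135 and 122 counts in shG0s2 and 10, 13, 1 and 17 in shRgs16. In CPM these were 0.372, 1.13, 0.531 and 0.471 in shLacZ, 4.69, 4.53, 4.68 and 4.44 in shG0s2 and 0.357, 0.473, 0.0392 and 0.676 in shRgs16. All shG0s2 samples were near 4.6 CPM and stood clear of the rest, and the other groups overlapped. The rise in shG0s2 was 2.87 (SE 0.265, adjusted p = 2.2e-06), the change in shRgs16 was -0.69 (SE 0.565, adjusted p = 0.331), and the knockdowns differed by 3.55 (SE 0.388, adjusted p = 5.5e-06).

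Gpx3, the secreted plasma peroxidase, rose in both knockdowns. It stood at 9.73, 6.42, 7.91 and 8.10 CPM in shLacZ, 18, 21.3, 13.4 and 18 CPM in shG0s2, and 20.6, 21.8, 15.7 and 21.5 CPM in shRgs16. Replicate 3 was the lowest in each knockdown, and the knockdowns overlapped. The rises were 1.14 (SE 0.152, adjusted p = 5.0e-05) and 1.30 (SE 0.137, adjusted p = 1.8e-05), and the difference of -0.17 between them did not pass (SE 0.144, adjusted p = 0.37).

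**Figure D5:**
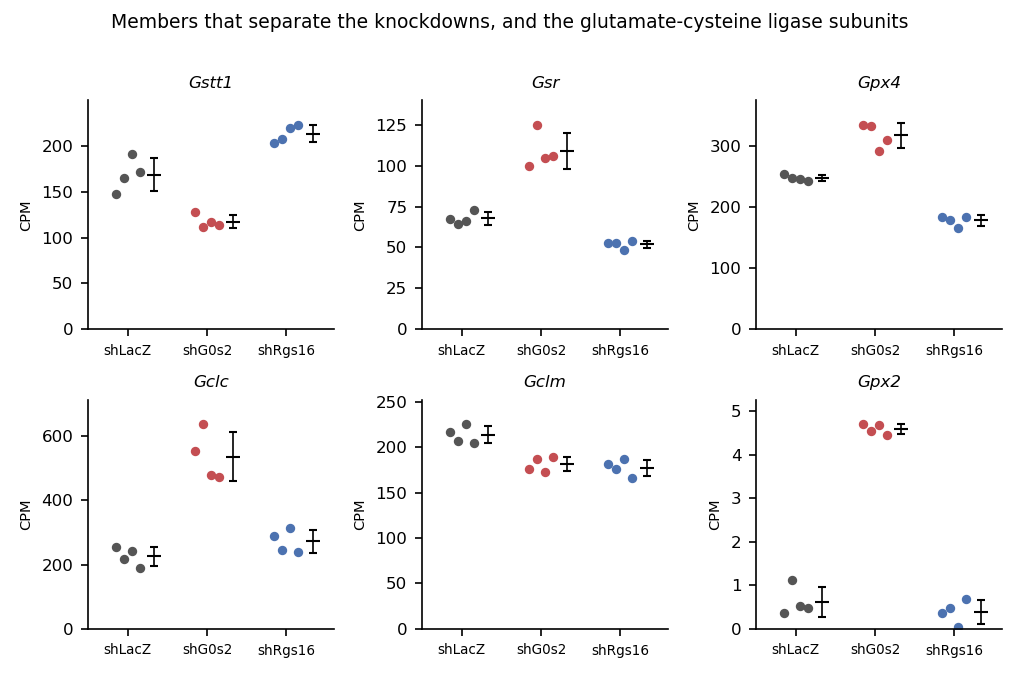
TMM-scaled CPM (y axis, starting at 0 in each panel) of Gstt1, Gsr, Gpx4, Gclc, Gclm and Gpx2 in each sample; dots are samples and the bars beside them the mean and SD of 4. For Gstt1, Gsr and Gpx4 the 4 control samples lie between the knockdowns without overlap. In TPM, Gstt1 in shG0s2 and Gsr in shRgs16 change sign against shLacZ, and Gpx4 in shRgs16 overlaps shLacZ. For Gclc and Gpx2 only shG0s2 is clear of the control on the CPM scale (in TPM, Gclc in shRgs16 is clear of it too).

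The other genes of glutathione metabolism were described from 8 lists holding 75 genes. In shG0s2, 24 of 72 tested rose and 37 fell (median log2 fold change -0.32), beside 31.3% and 29.2% of all genes tested. In shRgs16, 15 of 71 rose and 33 fell (median -0.23), beside 24.6% and 24.5%. Between the knockdowns 26 of 72 were higher in shG0s2 and 27 lower, beside 21.0% and 20.5%. The counts of each list below are to be read beside the same shares. Library size alone lowered the falls to 21 and 12. In cysteine supply, 2 of 10 rose and 7 fell in shG0s2, and 1 rose and 4 fell in shRgs16. Cdo1, which oxidises cysteine, fell by 1.35 (adjusted p = 6.7e-08) and 0.90 (adjusted p = 3.0e-06), and Slc3a2, the heavy chain of the cystine carrier, rose by 0.86 (adjusted p = 3.8e-07) and 0.88 (adjusted p = 1.6e-06). Slc7a11, the light chain of that carrier, is outside the naming rule and was singled out after its values were seen. It was at 0.329 to 1.46 CPM in shLacZ, 12.8 to 21.0 CPM in shG0s2 and 0.636 to 1.04 CPM in shRgs16, with a rise of 4.71 in shG0s2 (adjusted p = 3.8e-06).

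In NADPH supply, 5 of 7 rose and 2 fell in shG0s2, and 3 rose and 4 fell in shRgs16. With library size alone, 5 were higher and 0 lower in shG0s2, and 3 higher and 0 lower in shRgs16. Pgd, of the pentose phosphate pathway, rose by 1.83 (adjusted p = 2.7e-09) and 0.82 (adjusted p = 8.0e-06), and Tkt, a transketolase, by 0.78 and 0.37. Among 16 other peroxidases, glutaredoxins and thioredoxin genes, 6 rose and 6 fell in shG0s2 and 3 rose and 7 fell in shRgs16. Library size alone gave 11 higher and 1 lower in shG0s2, and 9 higher and 1 lower in shRgs16. Srxn1, which repairs oxidised peroxiredoxins, rose by 2.75 in shG0s2 (adjusted p = 1.9e-08) and 0.95 in shRgs16 (adjusted p = 0.00043). Gpx7, a peroxidase of the endoplasmic reticulum, rose by 2.68 and 1.77, and Glrx, a glutaredoxin, fell by 0.71 and 0.63.

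In conjugate export and mercapturate formation, 3 of 10 rose and 6 fell in each knockdown. With library size alone, 4 were higher and 4 lower in shG0s2, and 3 higher and 4 lower in shRgs16. Abcc4, an exporter at the blood side of the hepatocyte, rose by 3.45 in shG0s2 (adjusted p = 4.7e-10) and 0.96 in shRgs16 (adjusted p = 3.4e-05). Nat8 and Nat8f2, N-acetyltransferase family genes, fell by 2.29 and 0.92 in shG0s2. In shRgs16 Nat8f2 fell by 1.21, and Nat8 had a change of -0.49 (adjusted p = 0.0567). Of 10 genes of glutathione breakdown, 2 rose and 4 fell in shG0s2 and 1 of 9 rose and 4 fell in shRgs16, among them Chac2 (-0.78 and -0.61) and Lap3 (-0.77 and -0.53). Library size alone gave 4 higher and 2 lower in each knockdown. Of 4 genes of aldehyde removal with glutathione, 1 rose and 3 fell in shG0s2 and 3 fell in shRgs16. Library size alone gave 1 higher and 3 lower in shG0s2, and 1 higher and 1 lower in shRgs16. Glo1, glyoxalase 1, fell by 0.97 and 0.58, and Hagh, which completes that reaction, by 1.05 and 0.34, where library size alone gave -0.04 in shRgs16. Esd, S-formylglutathione hydrolase, rose by 0.14 in shG0s2 and fell by 0.31 in shRgs16, where library size alone gave -0.01.

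Among 5 tested relatives of the transferases, 4 rose and 1 fell in shG0s2 and 3 rose and 1 fell in shRgs16. Hpgds, a sigma class transferase that makes prostaglandin D, rose by 2.54 (adjusted p = 5.2e-08) and 1.97 (adjusted p = 1.1e-05). Ptges, prostaglandin E synthase, rose by 2.55 and 0.82 (with overlapping groups in shRgs16), and Alox5ap, which serves leukotriene synthesis, by 0.53 and 0.63. These prostanoid and leukotriene genes are known from leukocytes, and the Kupffer cell and macrophage list given above rose in 9 of 10 tested genes in shG0s2 and 8 of 9 in shRgs16; its part in these rises was not tested. The relative that fell in shG0s2 is Ltc4s, leukotriene C4 synthase, which is outside the naming rule and was singled out after its values were seen. Ltc4s fell by 1.58 (adjusted p = 0.000222), from 1.46 to 2.42 CPM in the control to 0.509 to 0.904 CPM, and its change in shRgs16 was 0.45 (adjusted p = 0.0901), where library size alone gave a called 0.75. Of 10 regulators of transferase genes, 1 rose and 8 fell in shG0s2 and 1 rose and 4 fell in shRgs16. Library size alone changed this to 3 higher and 4 lower in shG0s2, and 5 higher and 1 lower in shRgs16. Nfe2l2, which encodes NRF2, rose by 1.17 in shG0s2 (adjusted p = 5.3e-07) and 0.25 in shRgs16 (adjusted p = 0.00476). Hnf4a, a hepatocyte nuclear receptor, fell by 0.96 and 0.46 (with library size alone, -0.16 in shRgs16, not past the threshold), and Ppara, the fatty acid receptor, by 0.63 and 0.56.

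In the authors' deposited table, 12 of the 32 genes were marked significant in shG0s2, 11 of them up, and 8 in shRgs16, all up; every gene marked there had an absolute log2 fold change above 1.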

How the data were processed

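Total RNA of 12 liver samples was depleted of ribosomal RNA and sequenced. Per the file headers, the authors deposited, for each knockdown against shLacZ, estimated counts and TPM per gene and sample, the ratio of group levels (fold change), the log2 of that ratio, and p-values, raw and adjusted. Tools listed in the submitters' processing notes are DESeq2, SAMtools 1.9, GATK 3.8, fastp 0.19.5 and Bowtie2 2.2.9. The build, the annotation, the program that counted reads and its use of strand were not given in the sources used here. Both tables hold the same shLacZ values. The gene identifiers all match GENCODE on GRCm38, which gave coordinates, and RefSeq (GRCm38.p6) gave promoters for 28 of 32 genes.

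Estimated counts were rounded to whole numbers, filtered with filterByExpr, scaled by TMM and tested by edgeR 4.0.16 in R 4.3.3 (quasi-likelihood, two-sided, Benjamini-Hochberg over all genes tested, threshold 0.05), a procedure tested on simulated data. In those data few genes changed, in both directions, so they do not cover samples in which most genes change. Each knockdown was fitted with shLacZ alone, and the knockdowns were compared in a fit of all 12 samples. SE is the standard error of the log2 fold change. TPM was used for levels between genes and for shares. The genes and lists were chosen with earlier results of these data known. Values in every sample are given for 18 genes: the 6 called genes of largest change in a comparison with a mean of at least 1 CPM, the gene of highest TPM in each class, those called in opposite directions, and those with the 4 smallest p between the knockdowns. From each list of other pathway genes, up to 2 called genes with the smallest p per knockdown are named. Alternatives were DESeq2 1.42.0, limma 3.58.1 (voom, and log2(TPM + 1)), other scalings and filters, another choice of samples in the fit, a replicate block, and leaving out each sample.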

Additional observations from a re-analysis of the deposited data

Results flagged for a closer look

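For each of the 32 genes in each of the 3 groups, the highest and lowest of the 4 samples were compared with the nearest other sample, relative to the range of the group (Dixon's criterion at 95%). Of 96 such groups 5 held a sample that stood apart, and chance alone flags about 1 in 20. In shLacZ, Gsta1 was at 7.16 CPM in replicate 3, beside 3.48 CPM in the nearest sample, and Gss at 77.9 CPM in the same replicate, beside 92.1 CPM. Mgst1 in shLacZ was at 2561 CPM in replicate 4, beside 2381 CPM. Gstm1 in shRgs16 was at 1670 CPM in replicate 4, beside 2053 CPM, and Gstm5 in shG0s2 at 6.70 CPM in replicate 1, beside 5.55 CPM. The calls for Gsta1, Gss, Mgst1 and Gstm1 against shLacZ did not change when any single sample was left out.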

How the results depend on the processing

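Over 93 values (31 genes in 3 comparisons), relative log expression scaling kept every direction and call, DESeq2 kept 89 and added 4 calls, and voom kept 91. Library size alone kept 62, reversed 15, lost 7 calls and added 9, and TPM kept 51 and reversed 22. Both move the median of all genes upwards, as given above. With library size alone the genes that fell numbered 2, 4 and 4 (shG0s2, shRgs16 and between the knockdowns), and with TPM 2, 2 and 1, while TPM raised those higher in shG0s2 to 25. Of the other pathway genes, library size alone called 31 higher in shRgs16, and 21, 12 and 17 lower; TPM called 42, 33 and 40 higher and 12, 9 and 13 lower. Of all genes, library size alone called 10067, 7686 and 6054 higher and 1246, 1279 and 1568 lower; TPM called 11601, 8835 and 6750 higher and 733, 760 and 1163 lower.

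Signs turned with library size alone in shG0s2 for Gsta3 (0.40), Gstm7 (0.22), Gstp2 (0.34), Gstp3 (0.34), Gsto1 (0.00), Gclm (0.26) and Gpx1 (0.17). In shRgs16 they turned for Gsta3 (0.24), Gstp1 (0.01), Gsto1 (0.27), Gclm (0.03) and Gpx1 (0.10), and between the knockdowns for Gsta3 (0.16), Gpx1 (0.06) and Gpx3 (0.03). With TPM they turned in shG0s2 for Gsta3 (0.66), Gstm7 (0.51), Gstp1 (0.03), Gstp2 (0.32), Gstp3 (0.59), Gstt1 (0.19), Gsto1 (0.32), Mgst1 (0.13), Gclm (0.71) and Gpx1 (0.27). TPM did so in shRgs16 for Gsta3 (0.43), Gstp1 (0.15), Gstp2 (0.17), Gsto1 (0.40), Gclm (0.20), Gsr (0.07) and Gpx1 (0.13), and between the knockdowns for Gsta3 (0.22), Gstp3 (0.03), Gstk1 (0.06), Gpx1 (0.14) and Gpx3 (0.10).

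Class sums over shLacZ, in TPM and then CPM, were in shG0s2 2.48 and 1.30 (alpha), 10.9 and 6.79 (mu), 1.03 and 0.634 (pi), 1.37 and 0.860 (theta), 0.881 and 0.537 (kappa, omega and zeta), 1.11 and 0.706 (microsomal), 2.62 and 1.62 (synthesis, recycling and breakdown) and 1.32 and 0.860 (peroxidases). In shRgs16 they were 1.53 and 1.06, 5.68 and 4.16, 1.11 and 0.825, 1.81 and 1.39, 0.933 and 0.692, 0.707 and 0.542, 1.40 and 1.03, and 1.08 and 0.862. The unit thus decides whether the pi and peroxidase sums in both knockdowns, and the theta and microsomal sums in shG0s2, lie above or below the control.

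Leaving out 1 sample gave 15 higher and 8 to 9 lower genes in shG0s2, 14 to 16 and 7 to 8 in shRgs16, and 13 and 6 to 9 between the knockdowns. Other pathway genes numbered 22 to 25 higher and 36 to 38 lower, 13 to 16 and 29 to 32, and 21 to 27 and 25 to 28, and all genes 4566 to 4898 and 4144 to 4403, 3220 to 3706 and 3267 to 3691, and 2869 to 3490 and 2855 to 3379. Calls were lost for Gstm7 in shG0s2 (without shLacZ 3 or 4 or shG0s2 1, 2 or 3; adjusted p 0.0512 to 0.125), Gpx1 in shRgs16 (without shLacZ 1 or 2 or shRgs16 1 or 2; 0.0671 to 0.0824) and Gstt3 between the knockdowns (without shG0s2 3 or 4 or shRgs16 2 or 4; 0.0501 to 0.0607). Uncalled genes that changed sign were Gstm5 in shG0s2 (-0.05 and -0.03), Gstp3 (-0.01 and -0.05) and Gsto1 (range -0.13 to 0.01) in shRgs16, and Mgst2 (range -0.10 to 0.46) and Gclm (range -0.00 to 0.05) between the knockdowns.

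Deviations of same-numbered samples from their group means had correlations of -0.074 to 0.136, beside -0.131 to 0.113 for samples of different number. With 4 samples per group these values cannot decide whether the numbers mark a pairing. With the replicate block, 15 of the genes were higher and 9 lower in shG0s2, and all genes gave 4836 and 4463, 3566 and 3538, and 3292 and 3242. The block lost Gsta1 (2.0, adjusted p = 0.0611) and Gpx1 (-0.20, 0.0856) in shRgs16 and Gstt3 (-0.59, 0.0518) between the knockdowns, and added Gstm5 (0.38, 0.0282) and Gclc (0.27, 0.00981) in shRgs16. The causes of these changes were not tested. Depth limits Ggt1, Mgst2 and Gpx2, whose counts were few.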

Other observations

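Several members ranked the samples of a group in the same order. In shRgs16, Gsta4, Gstm2, Gstm3, Gstt3 and Gpx3 were all highest in replicate 2, then 4, 1 and 3, and the share of counts from major urinary protein genes in replicates 1 to 4 was 2.49%, 1.16%, 3.31% and 2.14%. The summed CPM of the stellate cell and fibroblast genes in the same samples was 728, 657, 410 and 513. In shG0s2, Gsta1, Gsta2, Gstm1, Gstm2, Gstt3 and Gpx4 shared the order 1, 2, 4 and 3. In shLacZ, Gsta1, Gsta2, Gstm3, Gstm6, Gstt1, Gstt3 and Gstz1 shared the order 3, 4, 2 and 1. These orders are descriptions of 4 samples each, and their link with the other values given here was not tested.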
